A study of Mus musculus with 764 samples.

Results

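S100 proteins, annexins and galectins, with the filament protein vimentin, were followed in single CD4+ T cells that carried an active IL-10 reporter. Rows of the count tables were taken by gene symbol, which gave 10 members of 23997 gene rows. They were the S100 genes S100a4, S100a6, S100a10, S100a11 and S100a13, the annexins Anxa1 and Anxa2, the galectins Lgals1 and Lgals3, and Vim. All 10 had a row in both tables. The cells came from spleen and small intestine of anti-CD3-treated mice with reporters for IL-10 (eGFP) and Foxp3 (mRFP), and no untreated mice were analysed here. Anti-CD3 is an antibody that activates T cells through their receptor. In these mice a green fluorescent protein marks cells in which Il10 is active and a red one marks Foxp3-expressing cells, and some Foxp3+ cells were included. Each cell was 1 sample and went through SMART-seq2, which copies whole transcripts of cells sorted into wells. The labels named no animal and no age.

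Most S100 proteins are small calcium sensors that change shape when calcium binds and then dock onto other proteins. Annexins bind acidic membrane lipids in a calcium-dependent way, and pairs of S100 and annexin proteins bridge membranes and the cortical actin layer. Galectins bind sugar chains on cell surface glycoproteins. In T cells, transcripts of many of these genes are known to be low in naive cells and higher in antigen-experienced cells, and Ccr7, the receptor for lymph node homing, and Cxcr6, a chemokine receptor of effector and tissue T cells, are often used to tell such cells apart.

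Of 764 cells, 190 were from the small intestine and the others from the spleen, and filters on depth and cell cycle kept 72.1% and 69.5% of them. Spleen cells were also read as 3 well sets, namely the first 12 columns of plate p1, its columns 13 to 24, and plate p2, of which 68.8%, 76.3% and 63.5% were kept. Small intestine cells sat on the other columns of plate p2, so that tissue and plate position cannot be told apart there. Kept cells held between 162801 and 622997 reads, with set medians between 315920 and 366238. Cd3e and Cd4, which define the sorted population, were read in 100% of cells of each set. Among 25 markers of B, myeloid, epithelial, stromal and endothelial cells (Cst3 and Fcer1g, which T cells can express, not counted), the median marker reached 10 reads in at most 0.820% of the cells of a set, and the most frequent was Pecam1, at 13.9% to 30.3%. Cst3 of the myeloid list reached 10 reads in 63.5% to 68.97% of cells. The summed mean level was 4.10 to 24.9 CPM for the B cell list. For the myeloid list it was 151.9 to 216.95 CPM, of which Cst3 was 150.6 to 208.9 CPM. It was 16.98 to 70.5 CPM for the epithelial list and 41.3 to 113.4 CPM for the stromal and endothelial list. In the latter list Pdgfra was at 0 in all 4 sets. Pdgfrb averaged 0, 0 and 0.034 CPM in the spleen sets and 14.2 CPM in the small intestine, where 5.84% of cells reached 10 reads. A Foxp3 read was found in 63.6% of cells in p1 columns 1 to 12, in 17.9% in p1 columns 13 to 24, in 6.56% on p2 and in 6.57% of small intestine cells. With no animal named, each tissue was 1 sample, and no difference below has a replicate check or a p-value. Intervals are 95% exact ones and cover counting error only, since reads from PCR without molecular identifiers are not independent molecules. Where no cell was counted, the limit given is the share that 3 cells would be.

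On the GRCm38 annotation the 5 S100 members lie on chromosome 3, on the plus strand. S100a13, S100a4 and S100a6 are in the main S100 cluster, with the starts of S100a4 (chr3:90603771-90606045) and S100a6 (chr3:90612882-90624181) 9.11 kb apart and S100a5 between them. S100a11 (chr3:93520488-93526287) and S100a10 (chr3:93555080-93564643) are next to each other at the far end of a span of 3050 kb that holds 74 coding genes. The other members lie apart, with Anxa1 on chromosome 19, Anxa2 on chromosome 9, Lgals1 on chromosome 15, Lgals3 on chromosome 14 and Vim on chromosome 2. The RefSeq promoter windows of 300 bases held 8 of the 10 members, and S100a10 and Lgals1 had no entry. The windows of 4 members are shown, for the 2 neighbours that differed most between the tissues (S100a4 and S100a6), for the member that was higher in the small intestine (Vim), and for one at even level (S100a11). They cover chr3:90603520-90603819, chr3:90612644-90612943, chr2:13574061-13574360 and chr3:93520246-93520545 of GRCm38.p6, all on the plus strand. Capitals mark the motifs found. The TATA box was searched as TATAAA on the given strand only. The others were searched on both strands, the GC box as GGGCGG, the AP-1 motif as TGANTCA with N for any base, and the CACCC box as CCACCC.
S100a4: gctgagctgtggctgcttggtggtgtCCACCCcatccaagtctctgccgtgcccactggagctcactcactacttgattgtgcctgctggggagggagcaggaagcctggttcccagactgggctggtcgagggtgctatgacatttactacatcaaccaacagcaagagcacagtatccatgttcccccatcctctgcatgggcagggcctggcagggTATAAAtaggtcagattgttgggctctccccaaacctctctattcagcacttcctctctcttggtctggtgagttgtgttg
S100a6: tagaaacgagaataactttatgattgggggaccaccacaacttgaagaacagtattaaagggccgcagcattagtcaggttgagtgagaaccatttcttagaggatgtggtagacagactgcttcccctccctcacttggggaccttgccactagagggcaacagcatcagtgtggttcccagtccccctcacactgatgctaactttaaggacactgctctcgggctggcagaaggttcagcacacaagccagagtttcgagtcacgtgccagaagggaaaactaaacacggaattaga
Vim: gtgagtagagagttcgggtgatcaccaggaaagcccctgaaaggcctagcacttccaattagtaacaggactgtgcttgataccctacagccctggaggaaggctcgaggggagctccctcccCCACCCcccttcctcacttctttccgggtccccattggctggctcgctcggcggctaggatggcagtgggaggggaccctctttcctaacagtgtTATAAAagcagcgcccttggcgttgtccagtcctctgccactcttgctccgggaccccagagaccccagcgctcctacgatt
S100a11: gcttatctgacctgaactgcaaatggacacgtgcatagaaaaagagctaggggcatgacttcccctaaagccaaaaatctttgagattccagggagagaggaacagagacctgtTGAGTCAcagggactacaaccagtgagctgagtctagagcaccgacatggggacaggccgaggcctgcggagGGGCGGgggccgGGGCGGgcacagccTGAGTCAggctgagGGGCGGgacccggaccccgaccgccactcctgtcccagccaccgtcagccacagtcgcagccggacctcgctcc

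The TATA box letters were present in 4 of the 8 member windows (S100a4, Anxa1, Anxa2 and Vim) and in 8.32% of all 32851 windows in the table. The GC box was present in 3 of 8 (Anxa2, Lgals3 and S100a11) and in 35.7% of all windows, the AP-1 motif in 2 of 8 (Anxa2 and S100a11) and in 7.81%, and the CACCC box in 4 of 8 (S100a4, S100a13, Anxa2 and Vim) and in 31.5%. The neighbours S100a4 and S100a6 thus differ in these letters, since S100a4 has a TATA box and a CACCC box and S100a6 has none of the 4. A match is a description of the letters and no measure of binding.

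Among the 9 members with a mean of at least 10 CPM in either tissue, S100a4 and S100a6 differed most between the tissues. Both were high in spleen and low in the small intestine. S100a4, a partner of non-muscle myosin that is linked to cell motility, had a mean of 712, 1194 and 633 CPM in the 3 spleen sets in the order given, and of 35.8 CPM in the small intestine. Over cells, the lowest S100a4 value was 0 in each set, the median was 98.1, 151.04 and 1.17 CPM in the 3 spleen sets and 0 in the small intestine, and the highest was 6540, 7081, 9285 and 1574 CPM. S100a4 reached 10 reads in 58.3% (49.4 to 66.8), 59.3% (50.9 to 67.4) and 32.8% (24.6 to 41.9) of spleen cells and in 9.49% (5.15 to 15.7) of small intestine cells. The small intestine share was thus below all 3 spleen intervals, while single cells overlapped. The 5 small intestine cells with the most S100a4 reads held 84.7% of its reads there, so the mean rests on few cells. Its 1656 reads in the small intestine (1577 to 1738) stood against 127329 (126631 to 128030) in spleen, and the log2 ratio of mean CPM was -4.55, lower than in all but 0.442% of genes.

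S100a6, which binds annexins and tropomyosin, had a mean of 759, 974 and 538.1 CPM in the 3 spleen sets and of 123.1 CPM in the small intestine. Its median cell had 511.2, 611 and 134.96 CPM in spleen and 0 CPM in the small intestine, with highest cells at 5651, 5995, 3669 and 2252 CPM. S100a6 reached 10 reads in 75%, 79.3% and 59.02% of spleen cells and in 39.4% (31.2 to 48.1) of small intestine cells. It was therefore less frequent and, where present, at a lower level in the small intestine, since cells with 10 or more reads averaged 911 to 1228 CPM in spleen and 310 CPM in the small intestine. The log2 ratio was -2.63.

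Vim was the member that went the other way. Vim, which encodes the intermediate filament protein of mesenchymal cells and lymphocytes, had a mean of 413.9, 464.1 and 517.7 CPM in the spleen sets and of 1173 CPM in the small intestine. The median cell had 32.5, 76.01 and 196.9 CPM in spleen and 858 CPM in the small intestine, and the highest cells 2900, 2985, 3106 and 5612 CPM. Vim reached 10 reads in 50%, 53.1% and 58.2% of spleen cells and in 90.5% (84.3 to 94.9) of small intestine cells, an interval that does not meet those of the spleen sets. Its log2 ratio of 1.34 was higher than that of 94.4% of genes. Neither S100a4, S100a6 nor Vim changed direction under another scaling, with ratios of -4.54, -2.50 and 1.52 when pooled size factors replaced total reads.

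**Figure D1:**
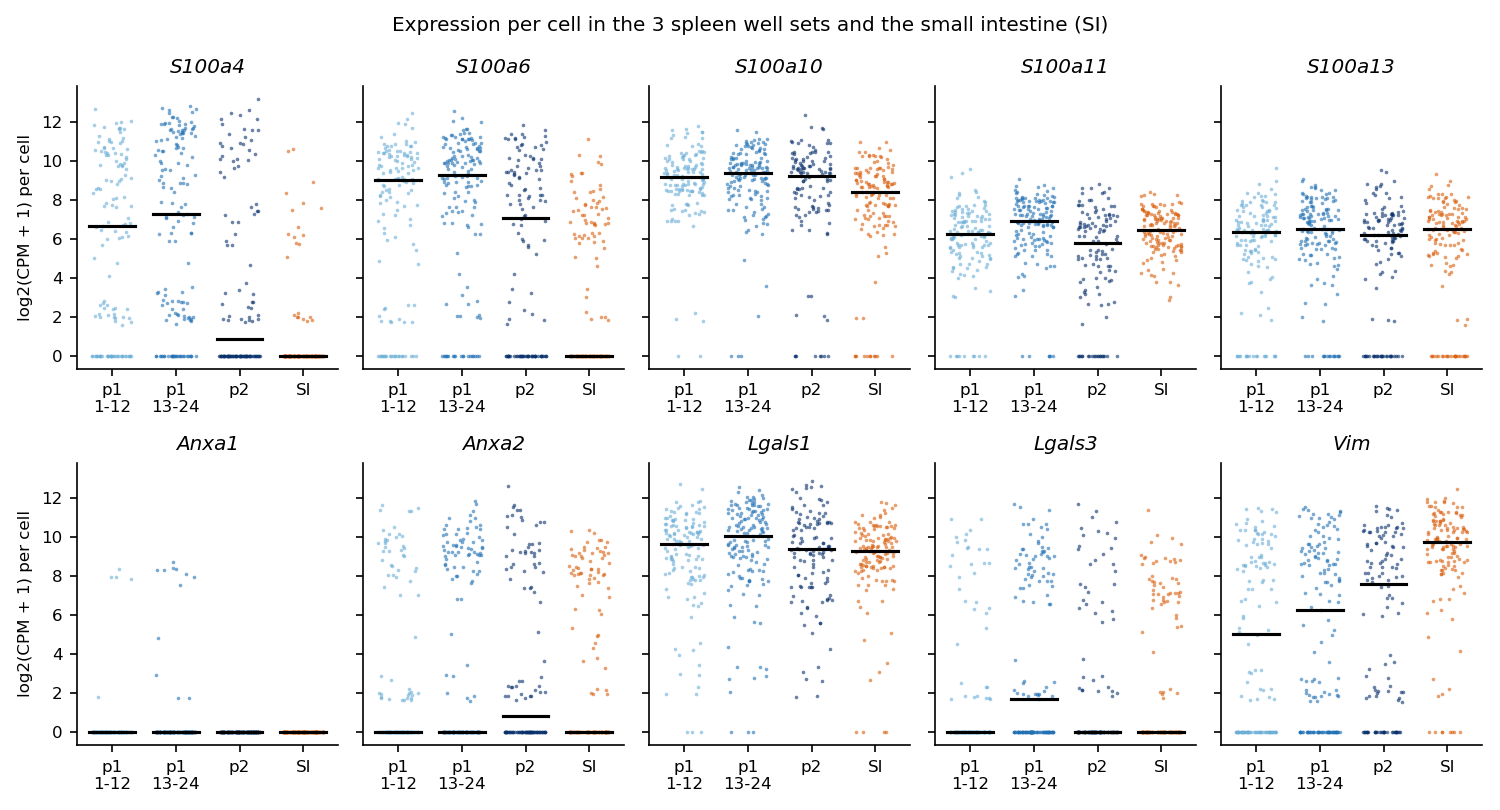
Level of each of the 10 genes in every kept cell, as log2(CPM + 1) on the vertical axis, for spleen plate p1 columns 1 to 12, p1 columns 13 to 24, spleen plate p2 and small intestine (SI). Each point is 1 cell and the black bar is the median, which for S100a4 and S100a6 is at 0 in the small intestine and for Vim is highest there.

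The other S100 members differed less between the tissues. S100a10, the partner of annexin A2 in a membrane-bound tetramer, had a mean of 780, 789 and 754 CPM in spleen and of 443.6 CPM in the small intestine, a log2 ratio of -0.80. It reached 10 reads in 96.2%, 96.6% and 89.3% of spleen cells and in 89.8% of small intestine cells, so nearly every cell had it and the difference was one of level. S100a11, a further annexin partner, had a mean of 105.1, 143.9 and 86.97 CPM in spleen and of 104.4 CPM in the small intestine. It reached 10 reads in 80.3%, 86.9%, 59.02% and 89.1% of cells, and the low value was that of spleen p2. S100a13, which takes part in protein export without a signal peptide, stayed within 106.3 to 123.8 CPM in spleen and was at 111.5 CPM in the small intestine. The log2 ratios of S100a11 (-0.12) and S100a13 (-0.02) turned to 0.07 and 0.18 with pooled size factors, so neither has a settled direction. S100a11 is uncertain for a further reason, since the processed pseudogenes Gm12854 and Gm7665, with no row in the files, match part of its transcript at 98.99% and 98.65% identity.

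Of the annexins, Anxa2 was shared by the tissues and Anxa1 was found in few spleen cells. Anxa2, a scaffold between membrane and actin, had a mean of 261.9, 401.2 and 383.3 CPM in spleen and of 180 CPM in the small intestine (log2 ratio -0.96). The share of cells with 10 reads was nevertheless 28.03%, 44.8% and 34.4% in spleen and 39.4% in the small intestine, so that the intervals overlapped, and Anxa2-positive cells averaged 894 to 1112 CPM in spleen and 453.4 CPM in the small intestine. With logs of single cells averaged in place of CPM the Anxa2 ratio was -0.05. Anxa1, known as a glucocorticoid-induced mediator, reached 10 reads in 4 cells of p1 columns 1 to 12 and in 8 cells of p1 columns 13 to 24. No kept cell of p2 or of the small intestine held an Anxa1 read, and 3 cells in these sets would be 2.46% and 2.19%. All Anxa1 reads of kept cells were thus on plate p1, which held spleen cells alone. The files do not state whether strand was used in counting, and antisense transcripts overlap Anxa1 (1500015L24Rik) and Anxa2 (Gm16144), while the read-through transcript Gm42674 overlaps S100a4.

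The galectins were present at a similar frequency in both tissues. Their mean level in the small intestine was below that of all spleen cells together, but for Lgals3 not below that of each well set. Lgals1, a secreted galectin with effects on T cell survival, had a mean of 1101, 1468 and 1258 CPM in spleen and of 824 CPM in the small intestine (log2 ratio -0.64). It reached 10 reads in 90.9%, 92.4%, 94.3% and 94.9% of cells. Lgals3, which forms lattices on surface glycoproteins, had a mean of 116.5, 267.2 and 176.8 CPM in spleen and of 117.6 CPM in the small intestine (log2 ratio -0.69), and reached 10 reads in 18.9%, 39.3%, 23.8% and 34.3% of cells. The small intestine share of Lgals3 lay between those of the spleen sets. When logs of single cells were averaged in place of CPM, its ratio turned to 0.19 and that of S100a11 to 0.51, while that of Lgals1 shrank to -0.25.

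**Figure D2:**
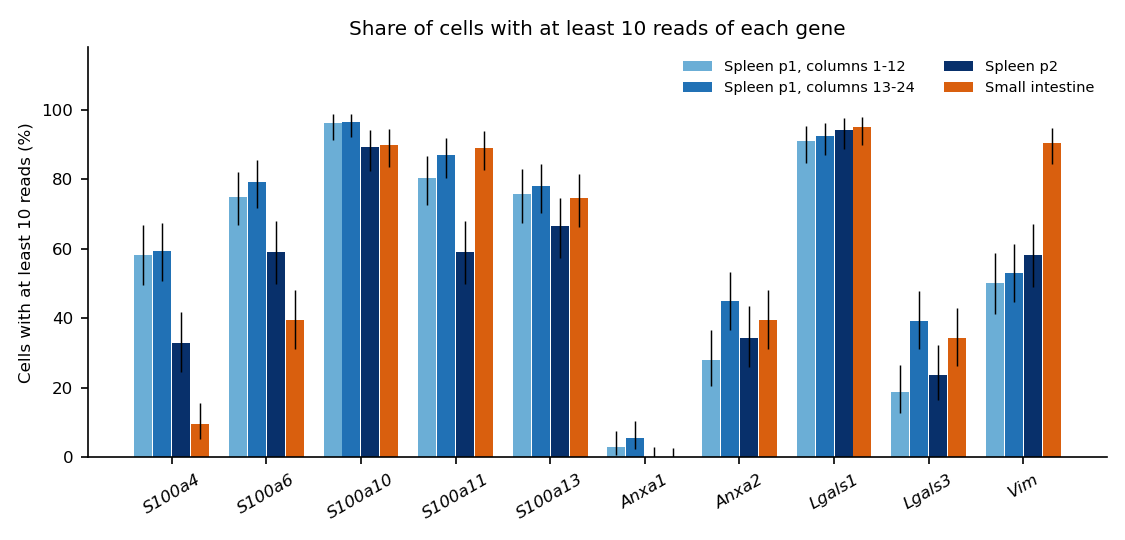
Percentage of kept cells with at least 10 reads of each gene, by spleen well set and in the small intestine, with exact 95% binomial intervals as error bars. S100a4 is at 9.49% and Vim at 90.5% in the small intestine, while S100a10 and Lgals1 are near the top in all 4 groups.

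Counted over the 10 members, the median log2 ratio of small intestine over spleen was -0.74, or -0.69 without Anxa1, against -0.22 over the 8822 genes with a mean of at least 10 CPM in either tissue. Anxa1, at 8.92 CPM in spleen, missed that minimum. Of the other 9 members, Vim was past a doubling upwards, as 8.29% of all genes were, and S100a4 and S100a6 were past a halving, as 17.3% of all genes were. Pooled size factors moved the median of all genes to -0.01 and that of the members to -0.57. The small intestine mean was below all 3 spleen sets for 5 members (S100a4, S100a6, S100a10, Anxa2 and Lgals1) and above all 3 for Vim. Over 9267 genes, 44.7% were below and 24.1% above, so the count of members below is close to the background. With pooled size factors S100a13 joined Vim above all 3 sets. When cells with a Ccr7 read were left out, an alternative added after seeing the data, 8 members were below all 3 sets (S100a11, S100a13 and Lgals3 in addition) and the median ratio was -1.06. The shares and the median over all genes were not recomputed for these cells, so neither value has a background beside it.

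Per kilobase of the principal transcript, the order of the levels differed between the tissues. In spleen S100a4 led with 1733 CPM per kb (1272 to 2397 over the 3 sets), then Lgals1 with 1603 (1377 to 1835), S100a10 with 1131 (1100 to 1152) and S100a6 with 1053 (736 to 1333). Neither S100a4 and Lgals1 nor S100a10 and S100a6 are apart beyond the range of the well sets. Anxa2 (241.6), S100a11 (222.4), Vim (211.5), S100a13 (158.01) and Lgals3 (133.7) followed with ranges that meet between neighbours except between Vim and S100a13, and Anxa1 was at 5.33 CPM per kb. In the small intestine the order was Lgals1 with 1030, S100a10 with 648, Vim with 534.7, S100a11 with 204.4, S100a6 with 168.4, S100a13 with 156.01, Anxa2 with 124.1, Lgals3 with 82.9 and S100a4 with 71.8 CPM per kb. S100a4 thus moved from the first place to the last but one, ahead of Anxa1 at 0, and Vim from the seventh to the third. There is 1 value per gene in the small intestine and no spread over sets.

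The spleen well sets also differed among themselves. All 10 members had a lower mean in p1 columns 1 to 12 than in columns 13 to 24 relative to the median gene, with a median log2 ratio of -0.43 against -0.01 over 8670 genes. Lgals3 (-1.19) and Anxa1 (8.08 against 17.2 CPM) were past a halving, as 4.78% of all genes were, and no member was past a doubling (4.19% of genes). These columns of p1 differed in Foxp3 reads (63.6% against 17.9% of cells), and the median ratio was -0.18 when cells with a Foxp3 read were left out. Spleen p2 over p1 columns 13 to 24 gave a median of -0.41 against 0.03 over 8789 genes, with 1 member past a halving (Anxa1, with no read on p2) and none past a doubling, against 6.17% and 6.54% of genes. That median was -0.22 without Anxa1. On p2, Ccr7 reached 10 reads in 51.6% of cells, against 8.33% and 13.1% on p1, and without cells that held a Ccr7 read the median of p2 over p1 columns 13 to 24 was 0.09. In those cells the S100a6 mean of p2 was 1088 CPM, beside 846 and 1111 CPM on p1, so that for S100a6 spleen p2 was no longer the lowest set.

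Within a set, cells tended to hold many or few of the members together. On average 5.77 (SD over cells 2.10), 6.35 (2.24) and 5.17 (2.47) of the 10 genes had at least 10 reads in cells of the 3 spleen sets, and 5.61 (1.55) in the small intestine. The mean number was thus alike in the tissues, 5.80 over all spleen cells, while its spread was wider in spleen. The variance over cells was 4.39, 5.02 and 6.08 in spleen and 2.42 in the small intestine, where independent genes with the same shares would give 1.53, 1.58, 1.73 and 1.30. Cells with 3 or fewer members made up 16.7%, 13.1% and 31.1% of the spleen sets and 9.49% of the small intestine, and cells with 8 or more made up 21.2%, 35.9%, 25.4% and 10.9%. Spleen p2 had most cells at 3 and 4 genes (18.03% and 16.4%), followed by an uneven spread. That spread was 8.20%, 12.3%, 6.56%, 12.3% and 13.1% of cells at 5, 6, 7, 8 and 9 genes. The small intestine had a single peak at 6 (26.3%).

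**Figure D3:**
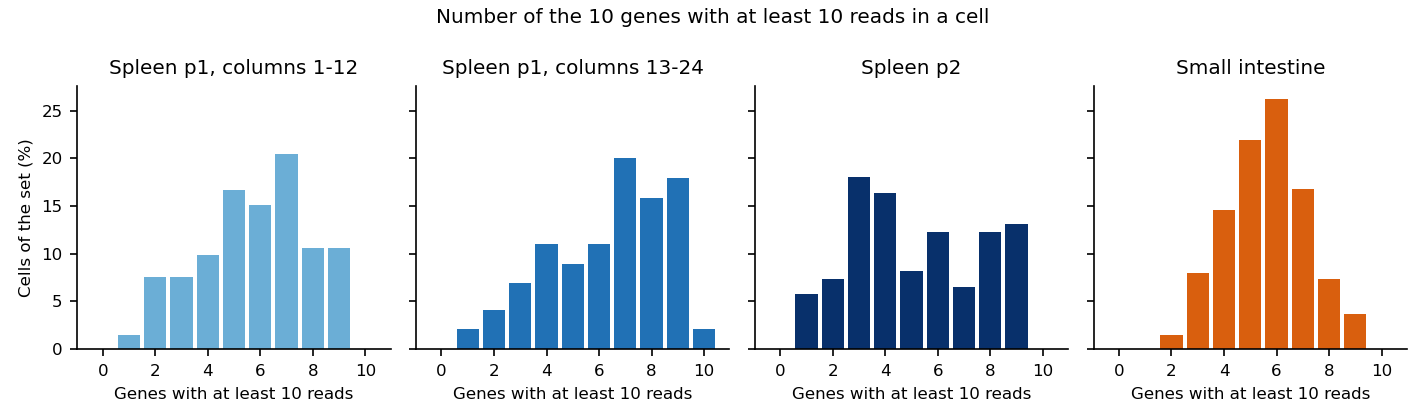
Percentage of kept cells (vertical axis) by how many of the 10 genes had at least 10 reads in the cell (horizontal axis), with 1 panel for each spleen well set and 1 for the small intestine. Spleen p2 has most cells at 3 genes and an uneven spread up to 9, and the small intestine has 1 peak at 6.

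Spearman's rho over cells gave the same picture for pairs of genes. The median over member pairs was 0.28, 0.41 and 0.45 in the 3 spleen sets and 0.19 in the small intestine, beside 0.01, 0.02, 0.03 and 0.02 for pairs of a member with any other gene read in at least 25% of cells. Cells of a set share plate and library handling, and the members were not free of depth, since a member index (the mean of scaled log levels) had a rho of 0.08 to 0.28 with the reads of a cell and of 0.24 to 0.37 with its number of genes. A rho of 0.3 or more was found in 21 of 45, 35 of 45 and 29 of 36 pairs in spleen and in 10 of 36 in the small intestine, where Anxa1 had no read. Among pairs of a member with another gene, 0.602%, 1.16%, 1.86% and 0.261% reached it. Pairs with Anxa1 were weak in both p1 sets, at 0.33 or less.

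S100a6 with Lgals1 was the first pair in both p1 sets and S100a6 with S100a11 on p2. S100a6 with Lgals1 had a rho of 0.72, 0.67 and 0.64 in the spleen sets and of 0.32 in the small intestine. S100a6 with S100a11 had 0.52, 0.60 and 0.73 in spleen and 0.05 in the small intestine. On p2 these pairs were followed by S100a10 with Vim (0.62), S100a10 with Lgals1 (0.61) and Lgals1 with Vim (0.60). The chromosomal neighbours S100a4 and S100a6 had 0.59, 0.53 and 0.55 in spleen and 0.31 in the small intestine. On p2, 30.3% of cells had 10 reads of both S100a4 and S100a6, where the product of their shares is 19.4%. The adjacent S100a10 and S100a11 had 0.38, 0.43 and 0.47 in spleen and 0.19 in the small intestine, values within the range of the other pairs. S100a10 and Anxa2, which form one protein complex, had 0.26, 0.49, 0.33 and 0.22. In the small intestine the highest pairs were S100a10 with Lgals1 (0.44) and Lgals1 with Vim (0.41), and those of S100a11 lay between -0.02 and 0.19.

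**Figure D4:**
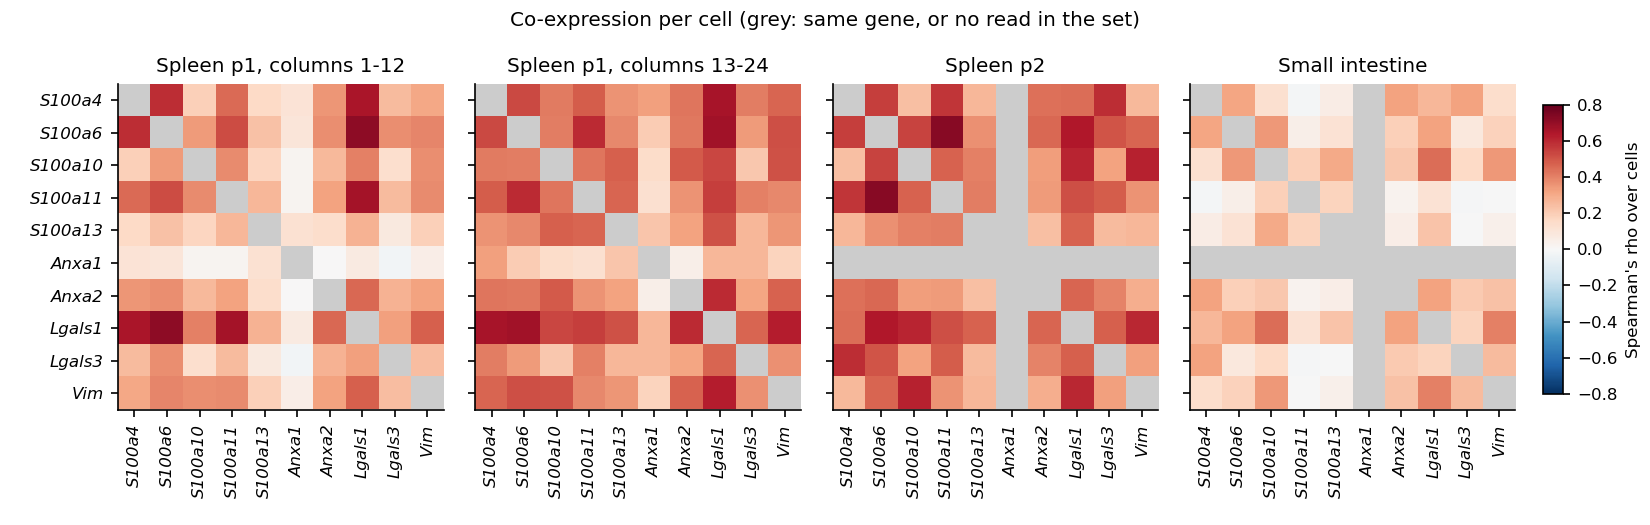
Spearman's rho over cells (colour, from -0.8 in blue to 0.8 in red) for each pair of the 10 genes in the 3 spleen well sets and in the small intestine. Values of 0.3 or higher are seen in 21 of 45, 35 of 45 and 29 of 36 spleen pairs and in 10 of 36 in the small intestine, and Anxa1 is grey where it had no read.

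Spleen cells with Ccr7 alone held on average fewer of the members at 10 reads than those with Cxcr6 alone. On p2, 59 cells had 10 reads of Ccr7 and not of Cxcr6, 33 had Cxcr6 and not Ccr7, 26 had neither and 4 had both. They held on average 3.51, 7.67, 5.54 and 6.75 of the 10 members. The same order was seen on p1, where cells with Ccr7 alone, neither and Cxcr6 alone had 2.73, 5.57 and 6.64 members in columns 1 to 12 and 4.37, 5.34 and 7.70 in columns 13 to 24, and where no cell had both. Cells with neither receptor thus lay between the classes in each spleen set. Median reads were lower in cells with Ccr7 alone than with Cxcr6 alone on p1 (331704 against 385687 and 354489 against 393071) and similar on p2 (322793 against 324181). The number of genes was also lower with Ccr7 (3131 against 3357, 3084 against 3513 and 3002 against 3422), and the part of depth in the difference was not tested.

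Every member except Anxa1, which had no read on p2, had a lower mean with Ccr7 alone than with Cxcr6 alone in each spleen set. For S100a10 the means were 734 against 874, 718 against 930 and 580 against 1068 CPM. In p1 columns 1 to 12 S100a10 averaged 713 CPM in cells with neither receptor, below its mean with Ccr7 alone. In p2 cells with Ccr7 alone S100a4 averaged 9.38 CPM and reached 10 reads in 5.08% (1.06 to 14.1), and in those with Cxcr6 alone it averaged 1818 CPM and reached 10 reads in 81.8% (64.5 to 93.02). For S100a6 the values were 90.9 CPM and 27.1% (16.4 to 40.3) against 1196 CPM and 100% (89.4 to 100). None of the 11 cells with Ccr7 in p1 columns 1 to 12 reached 10 reads of S100a4 or S100a6, and in columns 13 to 24 S100a4 reached it in 10.5% of 19 such cells and in 92.9% of 70 cells with Cxcr6 alone. S100a4 was thus in few Ccr7 cells and in most Cxcr6 cells of each spleen set, while S100a6 was in 52.6% of the Ccr7 cells of p1 columns 13 to 24. On p2 Lgals3 was similar, at 3.39% against 54.5% of cells, as was S100a11 at 28.8% against 93.9%. S100a10 and Lgals1 were instead read in most p2 cells of both classes, S100a10 in 84.7% against 100% and Lgals1 in 89.8% against 96.97%, with Lgals1 at 624 against 2457 CPM. Vim reached 42.4% against 87.9% on p2. In p1 columns 1 to 12 Lgals3 was in no cell with Ccr7 alone but in only 28.3% of those with Cxcr6 alone. In columns 13 to 24 its shares were 5.26% against 60%. S100a11 had 18.2% against 90.6% in columns 1 to 12 and 47.4% against 95.7% in columns 13 to 24.

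Over single cells, rho with Ccr7 had a median over the members of -0.17, -0.18 and -0.43 in the spleen sets, against -0.007, -0.004 and -0.018 over all genes tested. It was -0.3 or lower for 4, 2 and 7 members, which 0.353%, 0.188% and 2.2% of genes were. The lowest values were those of S100a6 (-0.68) and S100a11 (-0.62) on p2. With Cxcr6 the median was 0.21, 0.36 and 0.36, and 4, 7 and 8 members were at 0.3 or higher, against 0.67%, 1.71% and 2.27% of genes. S100a4 had 0.46, 0.60 and 0.53 with Cxcr6, and S100a10 and S100a13 had the lowest values in p1 columns 1 to 12, at 0.09 and 0.04.

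In the small intestine the relation to Cxcr6 over single cells was near 0 for most members. Cxcr6 reached 10 reads in 81.8% of the cells, and none reached 10 reads of Ccr7, with 3 cells being 2.19%. The median rho of the members with Cxcr6 was 0.03, none was at 0.3 or higher, and 0.0629% of genes were. Cells with Cxcr6 held 5.65 members on average (SD over cells 1.55) and the 25 without held 5.44 (SD 1.58), beside 6.64 to 7.70 in spleen cells with Cxcr6 alone and 5.34 to 5.57 in those with neither receptor. S100a4 reached 10 reads in 9.82% (5.01 to 16.9) of the small intestine cells with Cxcr6, in 8% of those without, and in 79.2% to 92.9% of the spleen cells with Cxcr6 alone. Its small intestine mean was 42.2 CPM with and 7.09 CPM without Cxcr6, a log2 ratio of 2.42 beside 2.12, 2.51 and 3.15 in the spleen sets, and rests on few cells. Cells with the same receptor transcript therefore differed in S100a4 between the tissues by more than counting error over cells. Neither tissue had a replicate.

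**Figure D5:**
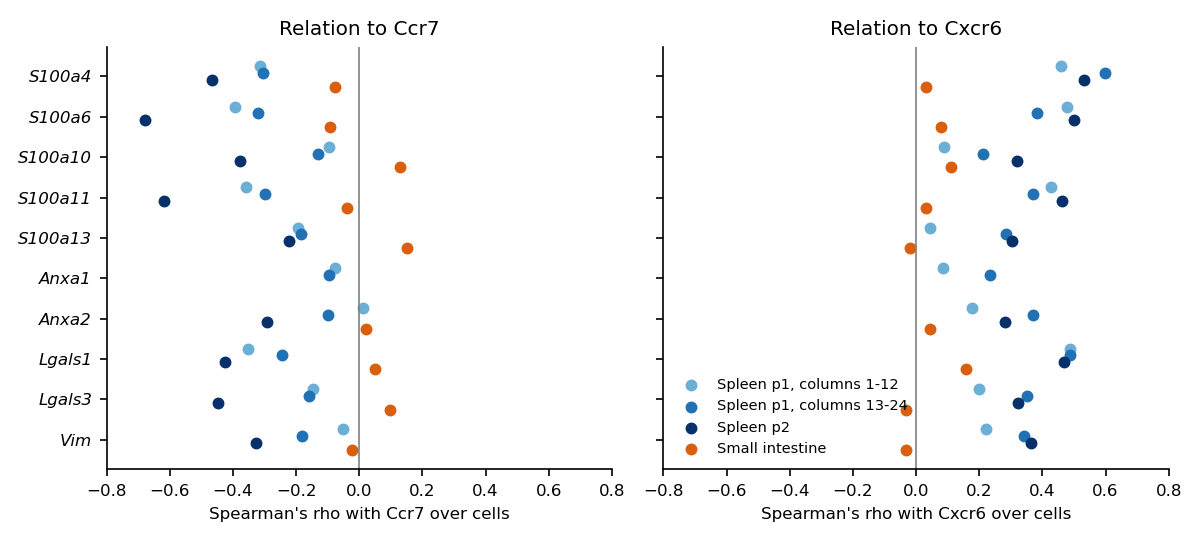
Spearman's rho over cells of each of the 10 genes with Ccr7 (left) and with Cxcr6 (right), where each point is 1 spleen well set or the small intestine. Spleen points lie at or left of 0.01 for Ccr7 and right of 0 for Cxcr6, and small intestine points lie between -0.09 and 0.16 in both panels. Ccr7 had only 4 reads in the small intestine, in 4 cells, so its points there cannot show a relation or its absence.

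Genes whose level followed the members most closely in all 4 sets, out of 4053 genes read in at least 25% of cells of each, included both cytoplasmic actins. By the lowest rho with the member index over the sets they were Actb (0.53), Tmsb4x (0.42), Ctsd (0.41), Sh3bgrl3 (0.38), Crip1 (0.37), Actg1 (0.33), Tspo (0.32) and Cfl1 (0.32). Actb and Actg1 encode actins, Tmsb4x binds monomeric actin and Cfl1 severs filaments, while Ctsd is a lysosomal protease and Tspo a protein of the outer mitochondrial membrane. The most opposite genes, by their highest rho, were the nuclear RNA Malat1 (-0.28), Rps15a (-0.22), Pabpc1 (-0.21), Btg1 (-0.21), Cnbp (-0.18), Gas5 (-0.17), Ncl (-0.17) and 2410006H16Rik (-0.16). The last are weak values, but each is the highest of the 4 sets. The lowest were -0.39 for Gas5 and -0.38 for 2410006H16Rik on spleen p2, and -0.40 for Ncl in p1 columns 13 to 24.

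Relatives of the members were mostly low or even. Of 11 other S100 genes only S100a1 passed the minimum of 10 CPM, at 14.7, 15.7, 3.596 and 12.4 CPM in the 3 spleen sets and the small intestine, and the myeloid genes S100a8 and S100a9 were at 1.99 CPM or less. Among 10 other annexins 5 passed, with Anxa6 (1184, 1078, 883 and 505.8 CPM) and Anxa5 (175.5, 217.1, 198.65 and 113.8 CPM) below all spleen sets in the small intestine and Anxa4 and Anxa11 above. Of 7 other genes with an Lgals symbol 3 passed, with Lgals8 above all spleen sets and Lgals9 within their range. Lgals3bp, which encodes a galectin-binding protein and not a galectin, also passed and was within their range. Among 19 measured cortical and adhesion partners, 12 were below all 3 spleen sets, 3 above and 4 within, beside 44.7% of all genes below and 24.1% above, with a median log2 ratio of -0.52 against -0.22 over all genes. The integrin chain Itgb1 (221.9, 435.7, 241.7 and 39.96 CPM) and the actin cross-linker Flna (825, 1049, 1080 and 296.3 CPM) were among those below, and the gut-homing integrin chain Itgb7 (648, 649, 798 and 934 CPM) was above. Of 12 genes of naive or central memory cells, 10 were below all 3 spleen sets and none above, beside the same shares of all genes.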

How the data were processed

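Single IL-10 reporter CD4+ T cells of anti-CD3-treated mice were sequenced with SMART-seq2. The authors aligned reads with STAR (mm10 in the submitters' processing notes, another build in the study's methods) and deposited raw read counts per gene, 1 column per cell. The counting tool and annotation were not given in the sources used here. CPM was computed from these deposited counts with each cell scaled by its total reads, so long transcripts gain reads. Gene positions came from GENCODE M21, promoter sequences from RefSeq (GRCm38.p6).

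Cells more than 3 median absolute deviations below their tissue's median log reads or genes were removed (minimum 161899 reads and 1793 genes in spleen, 170584 and 1765 in the small intestine), then those that cyclone (scran 1.30.0, R 4.3.3) put in S or G2M phase. This kept 137 of 190 small intestine and 399 of 574 spleen cells, the latter as 132 on p1 up to column 12, 145 on p1 from column 13 and 122 on p2. No doublet caller was run, since cells were sorted into wells. No columns held identical values. Log2 ratios used mean CPM + 1, and genes with a mean of at least 10 CPM in a group made the background. Analyses ran in Python 3.11.15 with scipy 1.17.1, and the ratio and rho steps were tested on simulated data. Levels of a set are means over cells, and no test was run with 1 sample per tissue. Exact intervals (95%) were Clopper-Pearson for shares and Poisson for summed reads, and a share of 0 allows 3 cells of the total. The member index was the mean over members of log2(CPM + 1) divided by the SD of each.

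The members and lists were chosen with earlier results of these data known. Named genes were the 10 members, Ccr7, Cxcr6, the 8 genes most like and the 8 most opposite to the member index by their weakest rho over the 4 sets, and the listed relatives. Alternatives changed the cell filters, scaling, pseudocount, averaging, read threshold and thinning to 200000 reads, and left out cells with Foxp3, other markers or Ccr7, or Anxa1.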

Additional observations from a re-analysis of the deposited data

Results flagged for a closer look

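In all, 5 members had a lower mean level in small intestine cells with Cxcr6 than in those without, and a higher one in all 3 spleen sets. The log2 ratios of cells with over without Cxcr6 were -0.064 for S100a6, -0.14 for S100a10, -0.15 for Anxa2, -0.84 for Lgals3 and -0.23 for Vim in the small intestine. In spleen they were 1.37, 0.78 and 1.91 for S100a6, 0.29, 0.50 and 0.74 for S100a10, 1.14, 1.66 and 2.53 for Anxa2, 2.26, 1.80 and 2.52 for Lgals3, and 0.77, 1.58 and 1.42 for Vim, in the order p1 up to column 12, p1 from column 13, and p2. The S100a4 mean was instead higher with Cxcr6 in both tissues, with 2.42 in the small intestine and 2.12, 2.51 and 3.15 in spleen. Its small intestine value rests on few cells, since 9.82% of those with Cxcr6 and 8% of those without reached 10 reads. Over single small intestine cells, rho with Cxcr6 was 0.03 for S100a4, 0.08 for S100a6, 0.11 for S100a10 and 0.04 for Anxa2. It was -0.03 for Lgals3 and for Vim, so these ranks do not show the directions of the means for each gene. The difference between the tissues was not tested, and 25 small intestine cells without Cxcr6 stand behind each value.

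Cells called S or G2M, which the comparisons leave out, also held the members. The mean number of members with 10 reads was 6.93 in such spleen cells, beside 5.80 in the kept spleen cells, and 6.03 in 34 such small intestine cells, beside 5.61. The log2 ratio to the kept cells was 0.13, 1.31 and 1.10 for Anxa2 in the 3 spleen sets and -0.50 in the small intestine. For Lgals3 it was 0.54, 0.27 and 1.26 in spleen and -1.37 in the small intestine, and for Vim 0.83, 0.92 and 0.40 against -0.10. The median over members was 0.04, 0.54 and 0.43 in the spleen sets, beside -0.12, -0.10 and -0.13 over all genes, and -0.02 beside -0.07 in the small intestine.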

How the results depend on the processing

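Of the recomputed summary values 16 moved, 1 changed sign and the others stayed within the spread between the spleen sets (counts: within 1.5 times). The median member ratio of small intestine over spleen (-0.74) was -1.07 with no filter on cells, -0.15 with the mean of logs and -1.06 without cells holding a Ccr7 read. Without those cells p2 over p1 columns 13 to 24 turned from -0.41 to 0.09. In the same cells 8 members were below all spleen sets, and the share of all genes below was not recomputed. Spleen cells then held 6.45 members and the Cxcr6 ratio in spleen (main value 1.48) was 0.90. That Cxcr6 ratio was 1.19 with all phases, 1.25 with no filter on cells, 2.54 with the mean of logs and 1.13 with the split at 1 read. The mean of logs also gave -0.77 for p2 over p1 columns 13 to 24. Pooled size factors put 2 members above all spleen sets. Leaving out cells with markers of other cell types gave a median rho with Cxcr6 of 0.14 in the small intestine (main value 0.03). Members per cell were 6.78 in spleen at 1 read, and 5.06 in spleen and 4.60 in the small intestine at 30 reads. Among single members 6 values changed sign: S100a13 to 0.03 with all phases, to 0.03 without cells with a Foxp3 read and to 0.18 with pooled size factors, S100a11 to 0.07 with pooled size factors and to 0.51 with the mean of logs, and Lgals3 to 0.19 with the mean of logs. A further 25 single-member values moved without a change of sign, among them with the mean of logs Vim to 3.72, S100a6 to -3.71, S100a10 to -1.09, Anxa2 to -0.05, Lgals1 to -0.25 and Anxa1 to -0.28. Anxa1 (-3.31) was -6.49 with a pseudocount of 0.1 and -0.92 with one of 10. The cause of these shifts was not tested. The directions of S100a4, S100a6 and Vim were kept under every alternative run. No paired analysis was possible because the labels give no replicate numbers and no animal.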

Other observations

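Listed genes other than the members varied with them to different degrees. Ahnak, a large protein bound by the S100a10 and Anxa2 complex, had a rho with the member index of 0.38, 0.52 and 0.58 in the spleen sets and of 0.22 in the small intestine, and a mean of 361.3, 435.7, 323.4 and 226.1 CPM. Anxa6 had 0.44, 0.53, 0.57 and 0.24. The naive T cell factor Tcf7 had -0.46, -0.48 and -0.65 in spleen, and in the small intestine its mean was 2.27 CPM, beside 209.4, 216.25 and 760 CPM.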
